A study of Hydra vulgaris with 5 samples.

Results

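The members described here are the nematocyst capsule and nematoblast genes of the freshwater polyp Hydra vulgaris. They were measured in single-cell libraries of hypostome and of tissue regenerating a hypostome. They are the table entries whose description names a minicollagen, a nematogalectin, nowa, spinalin, cnidoin, nematocilin, a dickkopf-related 3 protein, achaete-scute, PaxA, or a nematoblast, nematocyst or nematocyte gene, with toxins and cytolysins left out. The rule found 35 of 46156 entries, under 33 identifiers and 17 different descriptions. Of these, 8 were minicollagens, 3 nematogalectins, 11 entries named for nematoblast-specific expression, 8 dickkopf-related 3 entries, 4 transcription factors (2 achaete-scute and 2 PaxA) and 1 nematocilin. No entry carried nowa, spinalin, cnidoin or nematocyst in its description.

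All 5 libraries came from polyps of the strain given as 105 in the labels, and no transgene or drug is named. Polyps were bisected, and 3 libraries were made of tissue regenerating a hypostome, 1 each at 0, 4 and 12 h, against 2 libraries of hypostome, the cone around the mouth. Tissue was dissociated with the protease Pronase E, and transcript 3′ ends were read on the Bio-Rad SureCell droplet system, which tags each cell's transcripts with a barcode. The labels give neither the number of polyps per library nor whether the hypostome libraries are separate cultures, so p-values measure only the spread between these libraries, which may be technical.

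Nematocytes are the stinging cells of cnidarians, and Hydra keeps making them from its interstitial stem cells. Clusters of nematoblasts build a capsule from minicollagens, short collagens that are cross-linked by disulfide bonds into the capsule wall and tubule, and nematogalectin is a lectin of the tubule. Later the cells separate, mount the capsule with its sensory cnidocil and move to their stations, many of them in the tentacles. Nematocilin is an intermediate filament protein of the cnidocil of the mature cell, so it stands at the other end of this path from the capsule genes.

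The analysis used barcodes in which at least 200 genes were detected. They numbered 2332 at 0 h, 2782 at 4 h, 64 at 12 h, 110 in hypostome 1 and 168 in hypostome 2, and the libraries held between 55274 counts at 12 h and 2495372 counts at 4 h. The 12 h library stood apart: 94.1% of its deposited counts lay in barcodes under the limit, against 8.04% to 72.3% in the other 4. Summed markers of endodermal epithelium were at 16374, 11013 and 669 CPM (counts scaled to the same total in every library) at 0, 4 and 12 h and at 11610 and 12404 CPM in the hypostome libraries, and those of ectodermal epithelium at 3831, 3042 and 72.4 CPM against 4543 and 4912 CPM. At 12 h, 11 of the 44 endodermal and 3 of the 31 ectodermal marker entries held a count. The edgeR calls, the counts of members without overlap and the capsule list level are therefore given with and without it. The DESeq2 calls are given with it only. Barcodes are numbered in the tables, without their sequences, so barcodes shared between libraries could not be counted.

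Minicollagens held most of the members' counts: 13557 of 20418, or 66.4%, over the used barcodes of all libraries. These are counts of 3′ ends, not scaled by transcript length. Minicollagen 7 (MSTRG.173) alone had 11879 counts. Its level was 2272, 1870 and 181 CPM at 0, 4 and 12 h, against 13307 and 9625 CPM in hypostome 1 and 2. Every regenerating library lay below both hypostome libraries. Minicollagen 9 (MSTRG.8087) followed the same order, with 162, 153 and 0 CPM at 0, 4 and 12 h and 1419 and 360 CPM in the hypostome libraries. Minicollagen 15 (Sc4wPfr_82.1.g28987), which is known from the nematocyst tubule of Hydra, did not: its 101, 69.7 and 0 CPM in regenerating tissue overlapped the 58.5 and 542 CPM of the hypostome libraries. Minicollagen 8 (MSTRG.8087), at 7.90, 10.02 and 0 CPM against 7.32 and 82.4 CPM, and a second minicollagen 7 entry (Sc4wPfr_1007.g33051), at 41.7, 12.8 and 0 CPM against 29.3 and 39.0 CPM, overlapped as well. A minicollagen entry named nb001 (MSTRG.8093) had 40.2, 19.6 and 0 CPM against 190 and 65.0 CPM, with no overlap. Minicollagens 8 and 9 share an identifier with each other and with a collagen-related 3 precursor, and minicollagen 7 has 2 entries, so counts may be split between near-identical copies and the level of a single entry is uncertain.

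Among the nematogalectins, 1 entry (MSTRG.23904) held 157 of the 167 counts. It was at 22.3, 29.3 and 36.2 CPM at 0, 4 and 12 h, against 65.8 and 182 CPM in the hypostome libraries, without overlap. The 36.2 CPM at 12 h came from 2 counts, and all 42 counts of hypostome 2 came from 1 barcode, so the order rests on few cells.

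The entries named for nematoblast-specific expression held 6088 counts, 29.8% of the members' total. The descriptions give their clone names (nb054, nb012a, nb039a, nb035) and no function. The entry with most counts was an nb054 entry (Sc4wPfr_1269.g30703), with 437, 317 and 145 CPM at 0, 4 and 12 h and 2992 and 1301 CPM in the hypostome libraries. The other nb054 entry (MSTRG.3021) had 322, 212 and 54.3 CPM against 2875 and 486 CPM. Both were lower in every regenerating library than in either hypostome library. The nb012a entry MSTRG.17098 had 201, 145 and 36.2 CPM against 827 and 442 CPM. The nb035sv3 entry (MSTRG.19684) had 102, 83.4 and 0 CPM against 863 and 360 CPM, and nb035sv2 under the same identifier had 22.3, 13.6 and 0 CPM against 73.2 and 73.7 CPM. Of the nb039a entries, Sc4wPfr_385.g24452 had 43.1, 40.1 and 0 CPM against 629 and 86.7 CPM, and MSTRG.14605 had 96.2, 153 and 0 CPM against 227 and 182 CPM. All of these were ordered alike. An entry described only as nematoblast-specific (Sc4wPfr_589.g5994) overlapped, with 25.9, 16.8 and 0 CPM against 22.0 and 30.4 CPM. The 11 entries summed lay below hypostome without overlap in the used barcodes, at 1257, 989 and 253 CPM against 8530 and 2992 CPM. In barcodes with at least 500 genes the sum overlapped, at 3301, 3293 and 215 CPM against 9413 and 2974 CPM. Over all deposited barcodes it overlapped too, at 1160, 928 and 236 CPM against 3470 and 1039 CPM.

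Dickkopf-related 3 proteins belong to a family of secreted proteins, and a Hydra member is known to be expressed in differentiating nematocytes. The 8 entries together had 81.2, 97.4 and 0 CPM at 0, 4 and 12 h, against 293 and 282 CPM in the hypostome libraries. MSTRG.4545 had most counts, with 23.0, 59.3 and 0 CPM against 132 and 173 CPM, and Sc4wPfr_1479.g32579 had 39.5, 28.9 and 0 CPM against 117 and 60.7 CPM. Neither overlapped between the tissues.

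Transcription factors were scarce. PaxA, a paired-box factor needed for cnidocytes in the sea anemone Nematostella, had 1 entry with counts (Sc4wPfr_251.g2461), at 33.8, 19.2 and 0 CPM in regenerating tissue against 14.6 and 34.7 CPM in hypostome, which overlapped. Of the achaete-scute entries, named for the bHLH family to which the nematocyte-lineage factor of Hydra belongs, Sc4wPfr_147.g8607 held 12 counts and Sc4wPfr_396.g3034 held 23 counts over all libraries. Nematocilin A (Sc4wPfr_1020.1.g6637) had 1, 1 and 0 counts at 0, 4 and 12 h and 1 and 2 counts in the hypostome libraries. With 5 counts in all, against 13557 for the minicollagens, the mature marker was at the limit of detection in every library. The 17 members outside the 18 described by name held 0 to 30 counts each and reached at most 30.3 CPM.

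**Figure D1:**
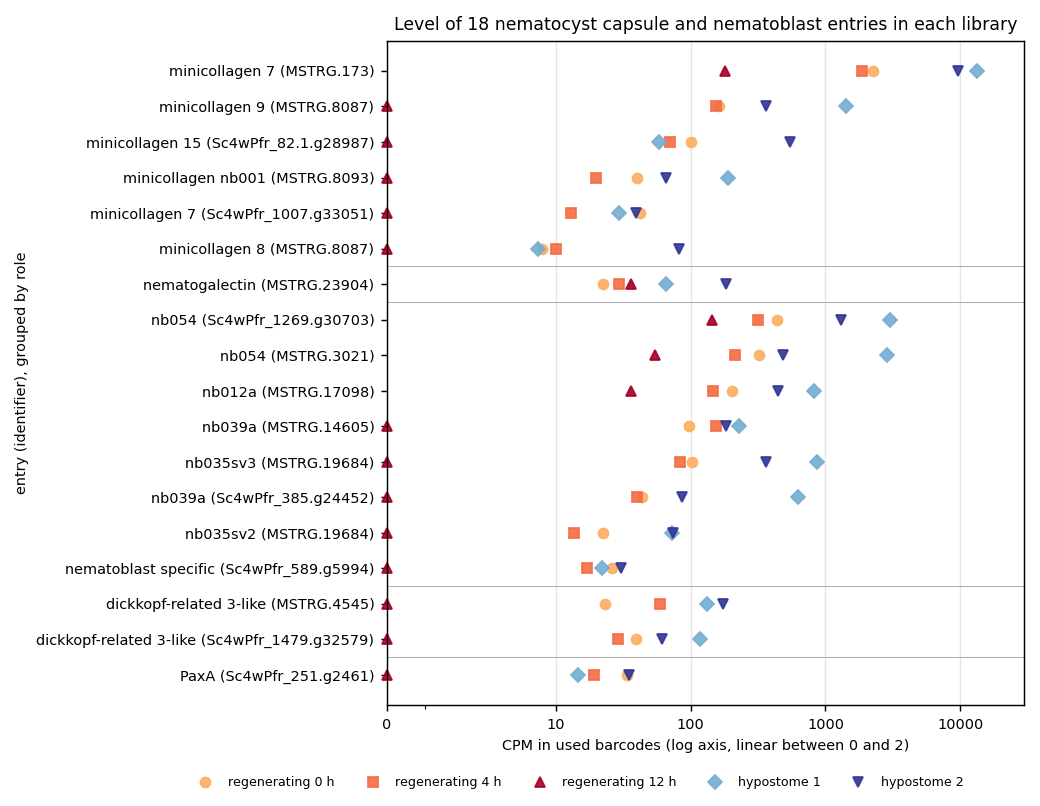
Level of the 18 most abundant members in each library, in CPM on a log scale, over barcodes with at least 200 detected genes, with regenerating libraries beside the 2 hypostome libraries. Minicollagen 7 (MSTRG.173) lies at 2272 and 1870 CPM at 0 and 4 h and at 13307 and 9625 CPM in hypostome, and 13 of the 18 members are at 0 at 12 h.

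For 13 of these 18 members all 3 regenerating libraries lay below both hypostome libraries, and for none did they lie above. Among all entries with at least 50 counts the share that lay below without overlap was 20.3%. With the 12 h library left out, the count was 13 of 18 again, where the share of all entries was 28.5%. In summed counts, fewer nematoblasts and less RNA per nematoblast cannot be told apart. The limit on genes per barcode also fell unevenly on the libraries. It left out 62.3% and 72.3% of the counts in the hypostome libraries, against 11.7%, 8.04% and 94.1% at 0, 4 and 12 h. How much of the order comes from fewer nematoblasts, from less RNA in each or from this limit was not tested. Over all deposited barcodes, which hold many with few genes, 5 of the 18 lay below without overlap, where the share of all entries was 16.3%. Over all barcodes without the 12 h library, 5 lay below, where the share was 25.1%, and 2 lay above, PaxA (Sc4wPfr_251.g2461) and Sc4wPfr_589.g5994. There minicollagen 7 (MSTRG.173) was at 2086, 1753 and 136 CPM at 0, 4 and 12 h, against 5262 and 2902 CPM in hypostome. Shares of all entries lying above hypostome were not counted, so the counts of members above cannot be set against them.

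The tissues were compared by the edgeR quasi-likelihood test on counts summed per library, with Benjamini-Hochberg adjustment over 3022 entries. No entry was called at an adjusted p under 0.05, a share of 0.0%. At an unadjusted p under 0.05 there were 332 entries, and DESeq2 called 103. Among the members, 14 were tested and 0 called, with 9 at an unadjusted p under 0.05. All 14 had lower fitted levels in regenerating than in hypostome tissue, with a median log2 fold change of -1.90, against -0.01 over all entries tested. The median of the members tested was -0.78 over all deposited barcodes and -0.99 at 500 genes. The filter on low counts asks for 43.4 CPM. Of the 14, 6 reached it in both hypostome libraries and in fewer than 2 regenerating libraries. These 6 were tested because of their hypostome levels, which bears on their direction. Minicollagen 7 (MSTRG.173) was at -2.62 ± 0.93 on the log2 scale (SE; edgeR adjusted p = 0.419), and the nb054 entry Sc4wPfr_1269.g30703 had -2.46 ± 0.60 (edgeR adjusted p = 0.273). The edgeR adjusted p of the 14 ranged between 0.273 and 0.951. Over the other settings tried, the adjusted p of minicollagen 7 lay between 0.0298 by DESeq2 and 1 by edgeR without hypostome 1, and its log2 fold change lay between -3.15 and -0.86.

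DESeq2 called 4 members lower in regenerating tissue, where it called 2.75% of all entries lower. They were minicollagen 7 (MSTRG.173; -2.64 ± 0.78, DESeq2 adjusted p = 0.0298), nb035sv3 (-2.75 ± 0.83, DESeq2 adjusted p = 0.0326), and both nb054 entries, MSTRG.3021 (-2.71 ± 0.83, DESeq2 adjusted p = 0.0382) and Sc4wPfr_1269.g30703 (-2.44 ± 0.55, DESeq2 adjusted p = 0.00118).

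Without the 12 h library, edgeR called 180 of 7732 entries, 108 of them lower in regenerating tissue, or 1.4%. Of 21 members tested, 3 fell: minicollagen 7 (MSTRG.173), at -1.94 ± 0.29 on the log2 scale (edgeR adjusted p = 0.0403), nb035sv3, at -2.17 ± 0.41 (edgeR adjusted p = 0.0484), and the nb054 entry Sc4wPfr_1269.g30703, at -1.98 ± 0.38 (edgeR adjusted p = 0.04995). Minicollagen 9 had -1.91 ± 0.56 (edgeR adjusted p = 0.120) and nematogalectin (MSTRG.23904) had -1.76 ± 0.56 (edgeR adjusted p = 0.133), so they were not called. PaxA (Sc4wPfr_251.g2461), with +0.43 ± 0.53 (edgeR adjusted p = 0.690), had a fitted level higher in regenerating tissue and was not called. The calls depended on the barcodes used: over all deposited barcodes without the 12 h library 183 of 8701 entries and none of 19 members were called by edgeR, with minicollagen 7 at -0.86 ± 0.30 (edgeR adjusted p = 0.188), while 6 members and 1547 entries had an unadjusted p under 0.05. Of those 6, 4 had lower and 2 higher fitted levels in regenerating tissue, the higher being PaxA (Sc4wPfr_251.g2461) and Sc4wPfr_589.g5994, at +1.05 each.

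**Figure D2:**
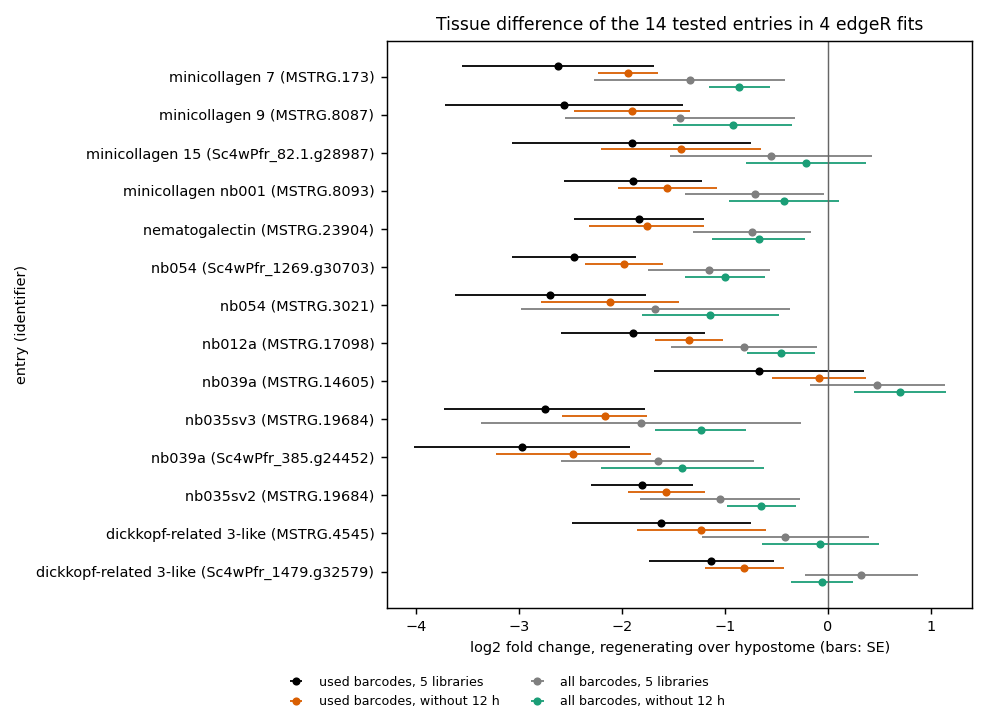
Log2 fold change of the 14 members tested, regenerating over hypostome, with its standard error, in 4 edgeR fits: used or all deposited barcodes, each with and without the 12 h library. Over used barcodes without the 12 h library 3 members are called lower: minicollagen 7 at -1.94, nb035sv3 at -2.17 and the nb054 entry Sc4wPfr_1269.g30703 at -1.98.

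A few barcodes held much of the capsule signal in hypostome. Over the 11 minicollagen and nematogalectin entries together, here called the capsule list, the level was 2651, 2180 and 217 CPM at 0, 4 and 12 h, against 15092 and 10913 CPM in hypostome 1 and 2. The barcode with most capsule counts held 309 of 3691 counts at 0 h and 588 of 5441 at 4 h, against 911 of 2063 in hypostome 1 and 963 of 2517 in hypostome 2, which is 8.37% and 10.8% against 44.2% and 38.3%. Without that barcode in each library the level was 2433, 1950 and 167 CPM against 9060 and 6882 CPM, without overlap. The gap of the capsule list was narrower in other barcode sets. At 500 genes the level was 7117, 7195 and 301 CPM against 16434 and 13024 CPM, and over all deposited barcodes it was 2436, 2043 and 200 CPM against 6014 and 3317 CPM. Without the 12 h library, the mean level in regenerating over hypostome libraries was 0.186 over used barcodes, 0.486 at 500 genes and 0.480 over all. With those barcodes and the 12 h library left out, 1 of 19 members was called by edgeR, minicollagen 7 at -1.38 ± 0.28 (edgeR adjusted p = 0.0449), where 2.02% of 7668 entries were called lower. This check was added after the values had been seen.

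Between regeneration times there was 1 library each, so no test was run, and ratios of CPM carry exact conditional binomial 95% intervals that cover counting error only. From 0 to 4 h no member with at least 50 counts over both libraries differed 4-fold. That was 0 of 17 members, while 1.33% of all 5570 such entries differed 4-fold and 0.485% were lower by that much. The members' median log2 ratio was -0.46, against -0.63 over all entries, so the ratios are read relative to that shift. For minicollagen 7 (MSTRG.173) 4 h over 0 h was 0.823 (interval 0.786 to 0.861), and for minicollagen 9 it was 0.947 (0.801 to 1.12). The direction depended on the scaling. The capsule list was at 2651 and 2180 CPM at 0 and 4 h, but at 2475 and 3357 CPM with TMM scaling. Without the most abundant entry (MSTRG.22171) the list was at 3051 and 3388 CPM. The ratio furthest above the rest was that of the dickkopf-related 3 entry MSTRG.4545, at 2.58 (1.75 to 3.91), with 32 counts in 15 barcodes at 0 h and 148 counts in 37 barcodes at 4 h. With TMM scaling this ratio was 4.25. The lowest was that of the second minicollagen 7 entry (Sc4wPfr_1007.g33051), at 0.308 (0.193 to 0.482), while the nb039a entry MSTRG.14605 was at 1.59 (1.30 to 1.95). Entries of the same name did not always keep a common ratio. The nb054 entries had overlapping intervals, at 0.656 (0.578 to 0.746) for MSTRG.3021 and 0.726 (0.652 to 0.808) for Sc4wPfr_1269.g30703.

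At 12 h the capsule list held 12 counts in all. Of 12 members compared with 0 h, 2 were at least 4-fold lower and 0 higher, where 10.4% of 3087 entries differed 4-fold either way and 5.77% were that much lower. Minicollagen 7 (MSTRG.173) had 10 counts at 12 h, against 3164 at 0 h, with CPM at 0.0796 of the 0 h level (0.0381 to 0.147). The nb054 entry MSTRG.3021 kept 3 counts at 12 h, against 449 at 0 h, with CPM at 0.168 of the 0 h level (0.0346 to 0.495). Minicollagen 9 had 225 counts at 0 h and 0 at 12 h. With the 0 raised to the floor of 3 counts its level was 2.98-fold lower at 12 h. The interval of its ratio without the floor ran from 0 to 0.416. The floor at 12 h was 54.3 CPM, so a member near that level at 0 h could not be followed. To be counted 4-fold lower, a member needed at least 4 times that level at 0 h. Only minicollagen 7 (MSTRG.173), at 2272 CPM, and the nb054 entries, at 437 and 322 CPM, had it. The other members compared, such as nb012a (MSTRG.17098) at 201 CPM, could not be counted lower whatever their 12 h level. Epithelial markers were also low in this library, as given above, and their part in the result was not tested.

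Barcodes rich in capsule transcripts were then counted, as those with at least 5 counts over the capsule list. There were 36 of 2332 used barcodes at 0 h, or 1.54% (exact Clopper-Pearson 95% interval 1.08 to 2.13%), 50 of 2782 at 4 h, or 1.80% (1.34 to 2.36%), and 0 of 64 at 12 h, for which the exact interval reaches 5.6% and 3 of 64 barcodes would be 4.69%. In hypostome 1 there were 16 of 110, or 14.5% (8.55 to 22.5%), and in hypostome 2 there were 22 of 168, or 13.1% (8.39 to 19.2%). The regenerating shares lay below those of hypostome at this limit of 200 genes. They did not at others: among barcodes with at least 500 genes the shares were 23.4% at 0 h (22 of 94), 19.8% at 4 h (22 of 111) and 0 of 13 at 12 h, against 21.4% (9 of 42) and 24.0% (12 of 50) in hypostome. Over all deposited barcodes they were 1.22%, 1.54% and 0.068% against 1.69% and 1.00%. The limit on genes removed 11.7% and 8.04% of the counts at 0 and 4 h, against 62.3% and 72.3% of those in hypostome 1 and 2, so the shares at 200 genes have denominators of unlike composition. Capsule-rich barcodes were deeper than the rest, with a median of 1528 counts against 604.

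**Figure D3:**
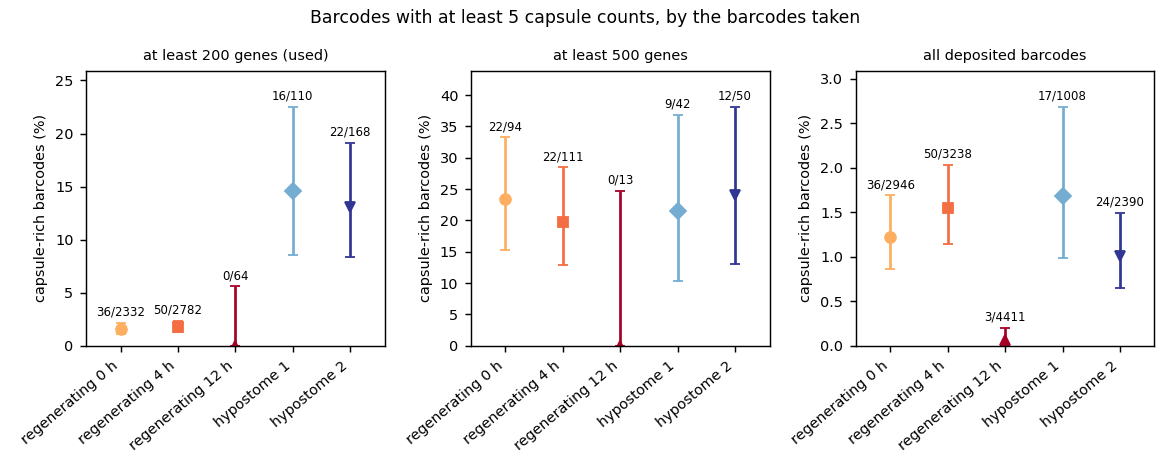
Share of barcodes with at least 5 counts over the capsule list in each library, in percent, with exact 95% binomial intervals, for barcodes with at least 200 and at least 500 detected genes and for all deposited barcodes. At 200 genes the shares at 0 and 4 h are 1.54% and 1.80%, against 14.5% and 13.1% in hypostome 1 and 2, and at 500 genes the 4 libraries lie between 19.8% and 24.0%.

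These barcodes held 78.8% and 77.7% of the capsule counts at 0 and 4 h, against 98.8% and 98.6% in hypostome 1 and 2. The members' counts made up a median of 2.55% and 2.65% of a capsule-rich barcode at 0 and 4 h, against 6.24% and 4.68% in hypostome 1 and 2, and reached 23.7% in a barcode of hypostome 2. A single capsule count did not mark a cell. Among barcodes with at least 5 counts of gland enzymes (chymotrypsin, trypsin, lipase and astacin entries), which belong to a cell type that should lack capsule genes, 263 of 916, or 28.7%, had at least 1 capsule count. Among the other used barcodes 1324 of 4540, or 29.2%, did, and the median depths were 536.5 and 624.5 counts. At 5 capsule counts the shares were 1.09% (0.525 to 1.998%) and 2.51% (2.08 to 3.01%), so a single capsule count is read here as background. Within the 0 h and the 4 h library the shares at 5 counts were 1.07% and 1.16% of enzyme-marked barcodes, against 1.69% and 1.89% of the others, with overlapping intervals. Nearly all enzyme-marked barcodes came from these 2 libraries. No doublets were called. The gland enzyme list was narrowed after values had been seen, because a mucin entry of the wider list (Sc4wPfr_301.g13989) was itself frequent in capsule-rich barcodes. With the wider list of 72 gland marker entries, 77 of 1171 barcodes, or 6.58%, had 5 capsule counts, against 1.10% of the others.

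Which members shared a barcode was described over the 124 capsule-rich barcodes, by Pearson's r on log1p counts per 10000. The barcodes share libraries and differ in depth, and rare entries bring many zeros, so r is given without a p. Minicollagen 7 (MSTRG.173) was in all 124, as the main component of the list that chose them. Of the 153 pairs among 18 members, 10 had r above 0.5 and 7 had r below -0.2. Minicollagen 9 (MSTRG.8087) went with both nb054 entries, at r = 0.75 each. Nb012a (MSTRG.17098) and nb035sv3 (MSTRG.19684) went with minicollagen 7, at r = 0.62 each. The pair furthest below 0 was minicollagen 9 and minicollagen 15 (Sc4wPfr_82.1.g28987), at r = -0.42, and r was -0.42 within libraries too. Minicollagen 9 and nematogalectin (MSTRG.23904) had r = -0.31. Minicollagen 9, minicollagen 15 and nematogalectin belong to the list whose summed counts chose the barcodes. Such a choice can by itself lower r between entries of the list, and its part here was not tested.

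**Figure D4:**
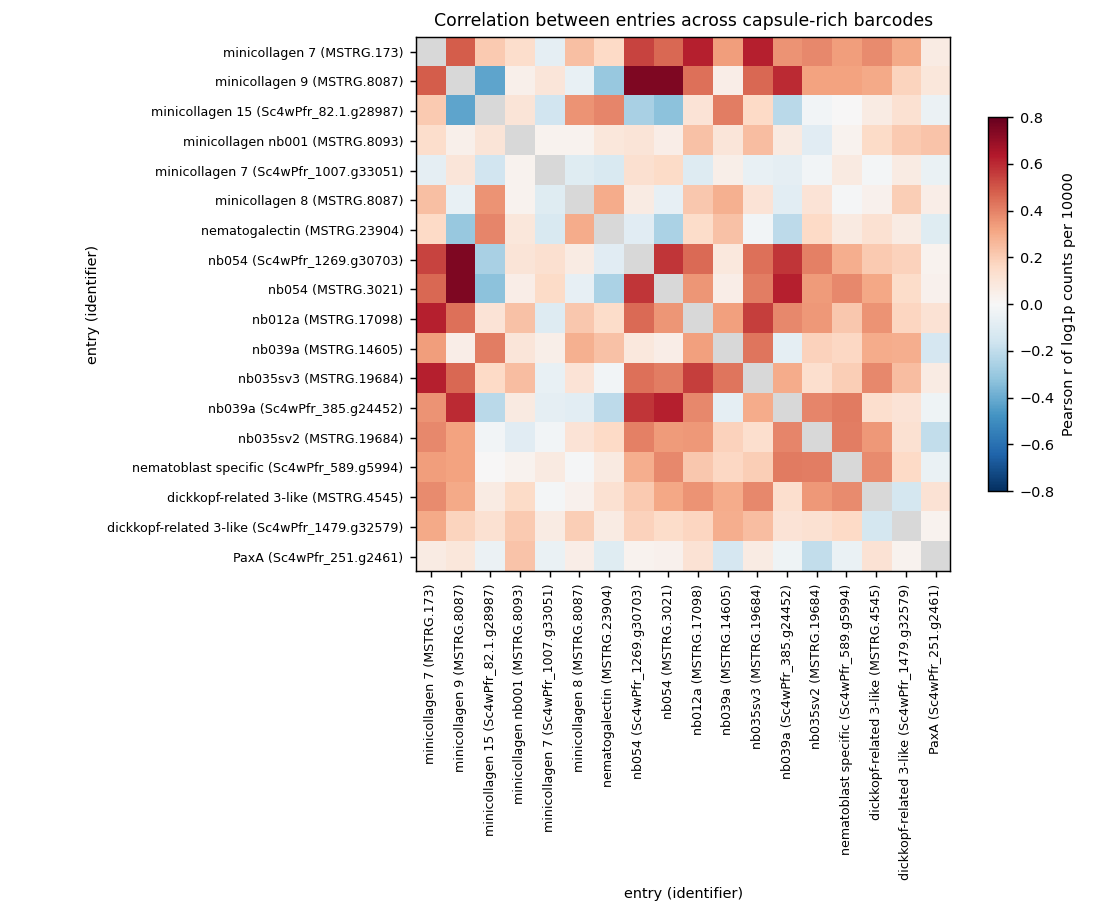
Pearson correlation of log1p counts per 10000 between each pair of the 18 most abundant members over the 124 capsule-rich barcodes. Minicollagen 9 and the nb054 entries stand at 0.75, and minicollagen 9 with minicollagen 15 at -0.42.

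Minicollagens 9 and 15 were mostly in different barcodes. Among the 124, 54 held minicollagen 9 without minicollagen 15, 33 held minicollagen 15 without minicollagen 9, 6 held both and 31 neither. Minicollagen 9 was found in 6 of 39 barcodes with minicollagen 15, or 15.4% (5.86 to 30.5%), against 54 of 85 without it, or 63.5% (52.4 to 73.7%). Barcodes with minicollagen 15 had a median of 2539 counts and those without it 1265. The split was seen in each library that had such barcodes. At 0 h minicollagen 9 was in 0 of 10 barcodes with minicollagen 15 and in 16 of 26 without. At 4 h it was in 3 of 17 and 20 of 33, in hypostome 1 in 0 of 2 and 10 of 14, and in hypostome 2 in 3 of 10 and 8 of 12. The share was smaller in barcodes with minicollagen 15 in each of these 4 libraries, although hypostome 1 had only 2 such barcodes. The pair was picked after its values were seen, and both entries belong to the list that chose the barcodes, so these shares are a description.

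**Figure D5:**
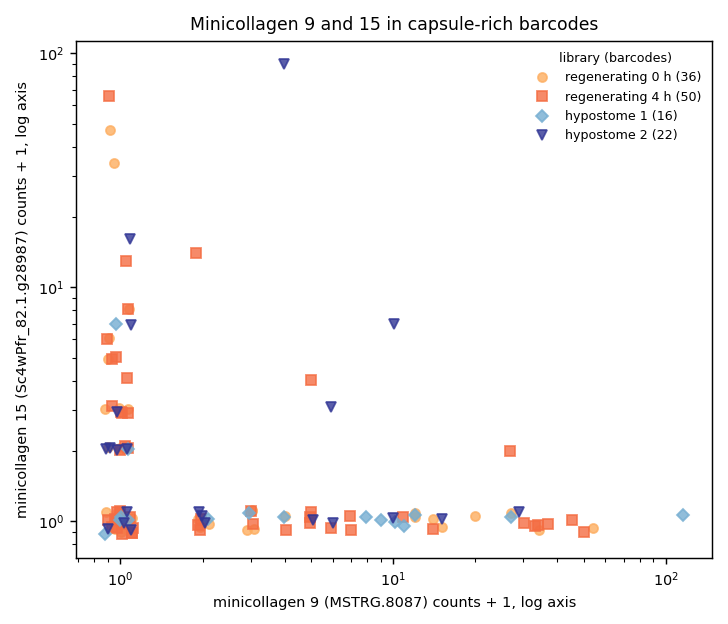
Counts of minicollagen 9 and minicollagen 15, each plus 1 on a log axis, in each of the 124 capsule-rich barcodes, coloured by library and spread by a small random shift. Most points lie along an axis: 54 barcodes hold minicollagen 9 only, 33 minicollagen 15 only and 6 both.

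The other members were then set beside this split. Barcodes were put in a minicollagen 9 kind when minicollagen 9 and the 2 nb054 entries together had at least 2 counts, and in a minicollagen 15 kind when minicollagen 15, nematogalectin (MSTRG.23904) and minicollagen 8 (MSTRG.8087) did. Of the 124, 57 were of the first kind alone, 21 of the second alone, 18 of both and 28 of neither. Of the nb039a entries, Sc4wPfr_385.g24452 was in 24 of 57 barcodes of the minicollagen 9 kind and 0 of 21 of the minicollagen 15 kind, while MSTRG.14605 was in 28 of 57 and 13 of 21, at 582 and 3002 CPM. Nb035sv2 was in 18 of 57 and 2 of 21. Other members were in both kinds: minicollagen 7 (MSTRG.173) in 57 of 57 and 21 of 21, nb012a (MSTRG.17098) in 37 of 57 and 15 of 21, nb035sv3 in 40 of 57 and 15 of 21, and PaxA (Sc4wPfr_251.g2461) in 14 of 57 and 5 of 21. The 6 entries that define the kinds are split by that choice, so their own counts in each kind are not given. The kinds were set after the values had been seen, the 18 barcodes of both are left out of these counts, and no order in time was measured.

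For the regulators, barcodes shared with capsule transcripts were counted over all used barcodes. PaxA (Sc4wPfr_251.g2461) was found in 61 used barcodes, of which 32 were capsule-rich and 44, or 72.1%, had at least 1 capsule count, against 28.6% of barcodes without it. Their median depth was 2341 counts against 608, which bears on any such share. Of the 2 achaete-scute entries, Sc4wPfr_147.g8607 was in 11 barcodes, 6 of them capsule-rich, and Sc4wPfr_396.g3034 was in 17, 1 of them capsule-rich, at median depths of 2299 and 2081 counts. Of the dickkopf-related 3 entries, MSTRG.4545 was in 62 barcodes, 36 of them capsule-rich, and Sc4wPfr_1479.g32579 in 102, 38 of them capsule-rich, and the pair shared 8 capsule-rich barcodes and had r = -0.14. The second minicollagen 7 entry (Sc4wPfr_1007.g33051) was unlike the first: 12.6% of its counts lay in capsule-rich barcodes, against 85.7% for MSTRG.173.

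Nematocilin was found in 5 used barcodes, with 1 count each. Of these, 1 had a capsule count, or 20% (exact 95% interval 0.505 to 71.6%), against 1586 of 5451 other barcodes, or 29.1%, and 0 were capsule-rich. The interval spans the background share, so early capsule building and the mature cell could not be set apart or joined from this marker at this depth. Entries most like nematocilin across barcodes had r of at most 0.14 on 5 nematocilin counts, which is no finding, and they are not described.

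Outside the members, the 10 entries most like the summed capsule list over the 5456 used barcodes, among 6301 with at least 50 counts, had r between 0.23 and 0.26. They included the collagen-related 3 precursor under the minicollagen identifier MSTRG.8087 (1713 counts, 86.0% of them in capsule-rich barcodes), a hornerin-like entry (MSTRG.18909), the mucin 2-like entry (Sc4wPfr_301.g13989), a spidroin 1-like entry (MSTRG.15187), a proteoglycan 4-like entry (MSTRG.152), an origin recognition complex subunit 2 (MSTRG.24078), a jockey-like polymerase (Sc4wPfr_3789.g17953) and 3 entries without an annotated name. The most abundant of these, MSTRG.22846, carried no match in the tables. It had 4295 counts, at 825, 631 and 54.3 CPM at 0, 4 and 12 h against 4777 and 3971 CPM in hypostome, and was in 112 of the 124 capsule-rich barcodes. Entries were also ranked by their correlation with the summed entries that define each kind, so their split between the kinds is a description of how they were picked. Among those ranked by the minicollagen 9 set, a homeobox cut-like entry (MSTRG.23755), named for a family of DNA-binding factors, was in 29 of 57 barcodes of the minicollagen 9 kind and 1 of 21 of the minicollagen 15 kind. Among those ranked by the minicollagen 15 set, a keratin-associated entry (MSTRG.8788) was in 9 of 57 and 15 of 21, and a gamma-glutamyltranspeptidase 1-like entry (MSTRG.19161) was frequent in both, in 35 of 57 and 19 of 21.

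In related lists 0 entries were called by edgeR on 5 libraries. The toxin list took entries by description alone (toxin, cytolysin, actinoporin, hydralysin or phospholipase A2), and whether they are made in nematocytes was not tested. It had 48 entries and 2 tested, with 1 at an unadjusted p under 0.05 and 1 called by DESeq2. Lineage regulators had 92 and 3, with 1 at that p and 0 called by DESeq2. Collagen and secretory folding genes had 60 and 21, with 1 at that p and 0 called by DESeq2, and a median log2 fold change of -0.24. Gland markers had 72 and 12, with 3 at that p and 1 called by DESeq2, and a median of -0.14. The median over all entries was -0.01. Without the 12 h library, 1 of 8 toxin entries tested rose in regenerating tissue, the phospholipase A2 entry Sc4wPfr_301.g13980, with 103 and 151 CPM at 0 and 4 h against 0 and 4.34 CPM in hypostome and an edgeR adjusted p of 0.0403. Of the 8, 3 had lower fitted levels in regenerating tissue. Among these was another phospholipase A2 entry (Sc4wPfr_599.g27243), at -1.29 ± 0.82 on the log2 scale and not called. It had 23.7 and 27.7 CPM at 0 and 4 h against 198 and 17.3 CPM. Of its 133 counts, 82.7% lay in capsule-rich barcodes. Of the folding genes 1 of 26 rose, an endoplasmin entry (Sc4wPfr_196.1.g29670), a chaperone of the endoplasmic reticulum, at +1.92 ± 0.31 on the log2 scale (edgeR adjusted p = 0.0440). The median of the 26 was 0.12, against 0.06 over all entries. Of the lineage regulators 0 of 11 were called by edgeR, with 3 at an unadjusted p under 0.05, and of the gland markers 1 of 26 rose, the elastase entry MSTRG.12981 (edgeR adjusted p = 0.0440). Over all 7732 entries in this fit, 72 were called higher in regenerating tissue, and 1655 had an unadjusted p under 0.05. Calreticulin (MSTRG.14506), a chaperone of secreted proteins, had 3333, 2436 and 1031 CPM at 0, 4 and 12 h against 4499 and 3538 CPM, and was not called (edgeR adjusted p = 0.907). Another calreticulin entry (Sc4wPfr_384.g24822) overlapped, at 1632, 959 and 959 CPM against 1251 and 967 CPM. Their log2 fold changes were -0.48 and +0.41 on 5 libraries. Without the 12 h library they were +0.03 and +0.70, and neither was called in either fit. Marker levels of other cell types did not all follow the members: gland markers were at 6408, 3110 and 1140 CPM against 3248 and 7041 CPM, which overlapped, and neuron markers at 611, 466 and 470 CPM against 10490 and 2302 CPM, which did not. Of the neuron sum in hypostome 1, 9137 CPM came from 1 of 75 entries, named polRFamide neuropeptides (MSTRG.19311). Other neuron entries lay below hypostome without overlap too. ELAV 3 (MSTRG.12588) had 97.7, 55.7 and 36.2 CPM against 322 and 199 CPM. The LWamide precursor (Sc4wPfr_412.g24329) had 68.9, 70.5 and 0 CPM against 175.6 and 1023 CPM. ELAV 2 (MSTRG.3248) overlapped, at 104, 58.1 and 181 CPM against 80.5 and 117 CPM. The synaptotagmin entries MSTRG.23743 and Sc4wPfr_672.g32796 overlapped as well. The part of these cell types in the members' values was not tested.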

How the data were processed

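The values deposited by the authors are raw counts, whole numbers for each entry in each barcode. Per the submitters' processing notes kallisto 0.46.1 was used. The genome build, the annotation, how barcodes were chosen, and whether counts are molecules or reads are not given in the sources used here. Intervals and floors (3 counts) cover counting error only and are too narrow if counts are reads.

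Members and lists were chosen with earlier results of these data known. Entries with at least 50 counts and 20 CPM in a library were described by name. Counts of barcodes with at least 200 genes were summed per library and tested with edgeR 4.0.16 (R 4.3.3): TMM, filterByExpr, quasi-likelihood test, Benjamini-Hochberg at 0.05, after a test on simulated data. The 3 regeneration times stand in for replicates in this fit, so any change over time adds to its error. Standard errors were derived from the fold change and its F statistic. DESeq2 1.42.0, other scalings, filters, barcode sets and left-out libraries were alternatives. Ratios between times took entries with at least 50 counts, with counts under 3 raised to 3. The other steps used Python 3.11.15 with numpy 2.4.6 and scipy 1.17.1.

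The RefSeq gene table matched 0 identifiers, so names are the tables' own descriptions, and no sequence or coordinate is given.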

Additional observations from a re-analysis of the deposited data

How the results depend on the processing

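The count of entries called between tissues, 0 by edgeR on 5 libraries, was 103 by DESeq2, 5 with library totals, 10 without a filter on low counts, 183 over all barcodes without the 12 h library, and 256 without the top capsule barcode of each library and without 12 h; leaving out 1 library gave 0 to 180. The count of members called was 4 by DESeq2, 1 without the top barcodes and 12 h, and 0 to 3 on leaving out 1 library. The capsule list's mean level in regenerating over hypostome libraries was 0.129. It was 0.178 with TMM, 0.334 over all barcodes, 0.331 at 500 genes, 0.160 without the most abundant entry (MSTRG.22171), 0.480 over all barcodes without 12 h, 0.486 at 500 genes without 12 h, 0.190 without the top barcodes, 0.275 without these and 12 h, and 0.092 to 0.186 on leaving out 1 library. Nematocilin's ratio was 0.047 on 5 counts, and was 0.061, 0.130, 0, 0.057, 0.194 and 0 under the first 6 of these settings, and 0.025 to 0.070 on leaving out 1 library. The mean share of capsule-rich barcodes was 12.7 percentage points lower in regenerating tissue (-12.7), and -12.1 without 12 h. It was -8.07 with barcodes thinned to 200 counts, -11.0 at 10 capsule counts, -8.31 at 500 genes, -0.401 over all barcodes, +0.0377 over all barcodes without 12 h, and -1.10 at 500 genes without 12 h. At 4 h over 0 h, 1 of 17 members differed 4-fold with TMM (1.63% of all entries) and 1 of 15 at 500 genes (1.72%). At 12 h over 0 h, 7 of 12 members did over all barcodes (58.3%), near the share of all entries (58.4%). The share of nematocilin barcodes with a capsule count, 20%, was 0 when thinned, 0 at 5 capsule counts, and 0 to 25.0 on leaving out 1 library, and at 2 nematocilin counts no barcode was left.

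Of 208 values for single members, 193 kept direction and call, 8 gained a call and 7 turned: Sc4wPfr_1479.g32579 over all barcodes (0.32), minicollagen 15 on leaving out 1 library (-2.67 to 0.69, of which 0.69 is without hypostome 2), nb039a MSTRG.14605 over all barcodes (0.48), at 500 genes (0.54), over all barcodes without 12 h (0.70) and without top barcodes and 12 h (0.28), and nematogalectin MSTRG.23904 in that last setting (0.22). The causes were not tested. The settings named for left-out top barcodes and for 12 h combined with another choice were added after seeing the data. No paired analysis was possible because the groups compared share fewer than 2 replicate numbers. Depth limits the 12 h library most, where 64 barcodes set a floor of 54.3 CPM.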
